A study of Caenorhabditis elegans with 42 samples.

Results

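Embryos of the adr-1 mutant strain BB19 were compared with embryos of N2, the wild type of Caenorhabditis elegans. BB19 carries the adr-1 allele tm668 (strain and allele as named by the labels and the deposited sheets), and N2 carries no adr-1 or adr-2 mutation. The comparison uses 7 of the 42 libraries of the series, 3 of BB19 and 4 of N2, and covers every transcript of the authors' deposited table, 34873 transcripts of 30304 genes. All animals were grown at 20 °C on enriched agar with OP50 bacteria, and embryos of mixed ages were freed from gravid adults with hypochlorite. The labels describe those adults as N2 for every sample, mutant samples included. Other groups used here are BB19 and N2 larvae of the fourth stage (L4), 3 libraries each, embryos of BB2 (adr-1 gv6, 2 libraries in the labels), RB886 (adr-2 ok735, 3 libraries) and BB3 (adr-2 gv42, 3 libraries), and young adults of 3 strains used for pull-downs. Of these HH76 carries FLAG-adr-1 with adr-1(tm668), HH134 carries FLAG-adr-1 with adr-1(tm668) and adr-2(ok735), and BB21, the negative control, carries both mutations and no tagged ADR-1. Each mutant is 1 strain, so the allele and anything else the strain carries cannot be told apart.

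ADARs are enzymes that convert adenosine to inosine in double-stranded RNA. In C. elegans ADR-2 is the deaminase, while ADR-1 binds double-stranded RNA, lacks deaminase activity of its own and alters how ADR-2 edits particular transcripts. adr-1 is known to be active in most of the nervous system. The series asks how altered editing and lost editing affect development.

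The deposited values are the authors' mean normalised counts per strain, so there is no value per library and no standard deviation, and levels below are such means unless a log2 ratio is named. A gene, represented by its most abundant transcript, was called higher or lower at the authors' adjusted p under 0.05. Where this p could be compared with counting error alone, the z value behind it was 0.92 times that of counting error (median of 6076 genes), so a call says little about the spread between libraries. For this reason genes that also differed by 2-fold or more are given separately. Library factors read from the spacing of low values ran between 0.763 and 1.297 in BB19 and between 0.883 and 1.14 in N2. Library titles hold numbers that read as dates, none shared between BB19 and N2 embryos, so that day and strain cannot be told apart.

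The targeted gene checked the labels. The adr-1 mean was 1520 in BB19 embryos, against 6290 in N2 embryos (log2 ratio -2.05, adjusted p listed as 0 in the authors' deposited table). Of the 5 adr-1 transcripts listed, H15N14.1g had 26.2 in BB19 and 425 in N2 (log2 ratio -4.02), while the other four had log2 ratios between -2.05 and -1.94. In BB2 embryos, whose adr-1 allele is gv6, the same transcript had a log2 ratio of -1.70 and the others between -2.59 and -2.55. The adr-1 RNA left in BB19 thus differed in makeup from N2 and from BB2, and among 2397 genes with several distinguishable transcripts of average mean at least 50 each, it was the only one where transcripts differed by 1 or more on the log2 scale. Reads of 1 gene are shared among its transcripts, so these values are not independent. The adr-2 mean was 1800 in BB19 and 2010 in N2 (log2 ratio -0.16, called lower).

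The neighbours of adr-1 on chromosome I held 1 further large difference. D2005.1, a protein-coding gene 2 genes away in the order of the reference annotation, had 322 in BB19 and 949 in N2 embryos (log2 ratio -1.56, adjusted p 6.63e-234 in the authors' deposited table). Its log2 ratio was -1.51 in BB2 embryos, -0.08 in RB886, 0.07 in BB3 and -1.26 in BB19 at L4. It was lower in both adr-1 strains at the embryo stage and close to N2 in both adr-2 strains. The gene between adr-1 and D2005.1, VH15N14R.1, had 387 in BB19 and 430 in N2, and nsf-1 on the other side had 4550 in both. Among the 20 genes within 10 positions, 3 were called higher and 7 lower, with D2005.1 the only one past 2-fold. Among the genes called higher were nlp-8, a neuropeptide gene (42.3 in BB19, 23.6 in N2), and glna-3, a glutaminase gene (82 in BB19, 53.3 in N2). Within 100 positions 35 of 200 genes were called higher and 60 lower, against 399 and 809 of the 2740 ordered genes of the chromosome.

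**Figure D1:**
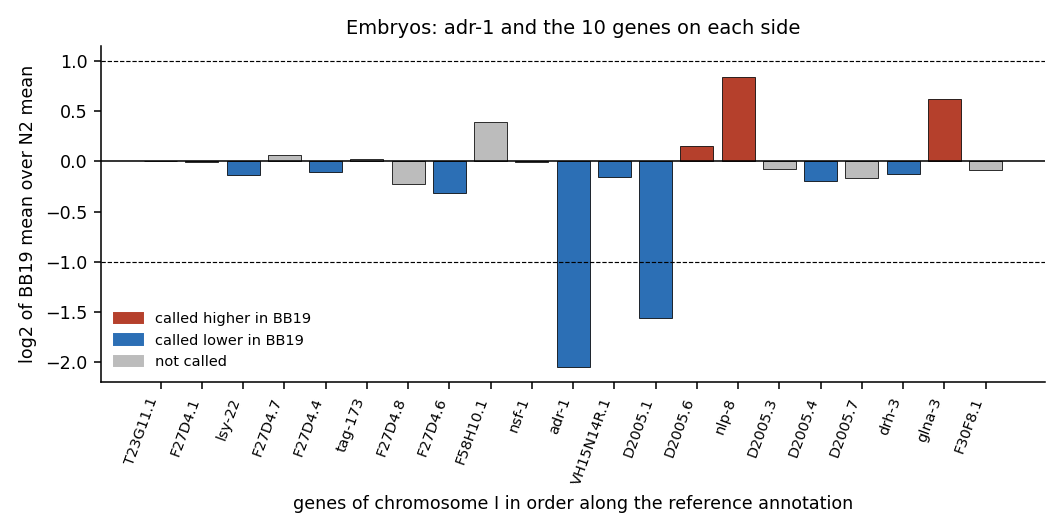
Bars give the log2 ratio of the BB19 mean to the N2 mean in embryos for adr-1 and the 10 genes on each side, in the order of the reference annotation, with dashed lines at 2-fold. adr-1 (-2.05) and D2005.1 (-1.56) pass the lower line, and VH15N14R.1 between them (-0.15) does not.

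Across the table, small differences were common and large ones were few and mostly upward. Of 27033 genes with a deposited p, 3562 were called higher (13.2%) and 4531 lower (16.8%), and the median size of a called difference was 0.30 on the log2 scale. At 2-fold or more, 706 genes were higher (2.61%) and 106 lower (0.392%). The genes past 2-fold were weakly expressed, with a median mean of 18.3 in BB19 and 7.29 in N2 for those higher, and 5.02 in BB19 and 13.9 in N2 for those lower. Only 59 of the higher and 8 of the lower had an average mean of 100 or more. The direction went with abundance. Among 2703 genes with average means of at least 1290, 452 were called higher and 1446 lower, and among 2703 genes with average means of 7.10 to 22.3, 432 were higher and 109 lower. The balance of small calls rests on the authors' scaling. Genes with both means of at least 100 had a median log2 ratio of -0.07, and with that median moved to 0 a test on counting error gave 4894 higher and 2338 lower (67.7% higher), against 3788 and 4871 under the authors' scaling (43.8% higher). Embryos were measured in bulk, so fewer cells of a type and less RNA per cell cannot be told apart, nor can the mix of embryo ages in a preparation and the level at a given age.

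**Figure D2:**
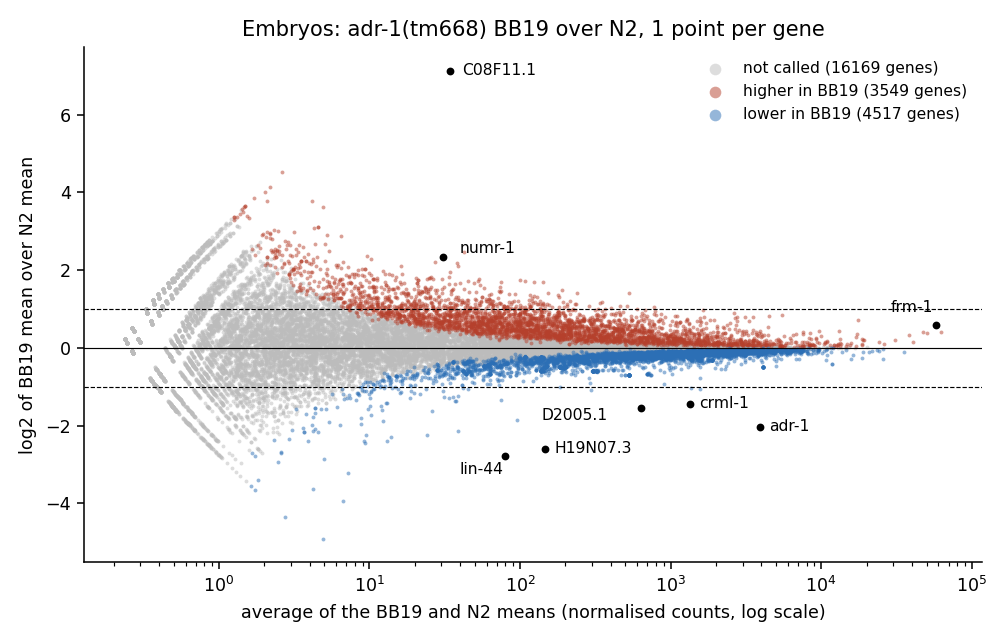
Each point is a gene with both means above 0, plotted by the average of its BB19 and N2 means (log scale) and the log2 ratio of BB19 to N2 in embryos, coloured by the authors' call, with dashed lines at 2-fold. Large ratios are concentrated among genes with low means and point upward more often, while adr-1, crml-1, D2005.1, H19N07.3 and lin-44 stand below other genes of like abundance.

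The 8 abundant genes that were lower by 2-fold or more fell into 3 kinds by their values in the other strains. adr-1, D2005.1 and Y37B11A.2 (122 in BB19, 246 in N2) had low values in both adr-1 strains, with log2 ratios for Y37B11A.2 of -1.01 in BB19, -0.88 in BB2, 0.12 in RB886 and 0.05 in BB3. crml-1, which encodes a CARMIL-type regulator of actin, and H19N07.3 were low in BB19 and nearer to N2 in the other strains. crml-1 had 719 in BB19 and 1970 in N2 embryos (log2 ratio -1.45), against log2 ratios of -0.10 in BB2, 0.01 in RB886 and 0.07 in BB3. H19N07.3, named nhj-1 in the reference annotation for its role in joining DNA ends, had 41.7 in BB19 and 253 in N2 (log2 ratio -2.60), against -0.26, -0.17 and -0.22 in BB2, RB886 and BB3. These comparisons share the N2 libraries, and the differences between strains were not tested. acdh-2, an acyl-CoA dehydrogenase gene, had 888 in BB19 and 1830 in N2, with log2 ratios of -1.04 in BB19 and -1.01 in BB3. ins-13, an insulin-like gene that overlaps acdh-2 in the reference annotation, had 1010 in BB19 and 2100 in N2, and reads of this pair may not be separable. C09B8.4 had 189 in BB19 and 399 in N2.

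The lowest ratio of all named genes with an average mean of at least 10 was that of lin-44, a Wnt ligand made in the tail that orients dividing cells there. Its mean was 20.1 in BB19 embryos and 138 in N2 embryos (log2 ratio -2.79, adjusted p 1.8e-74 in the authors' deposited table). In the other strains its log2 ratio was 0.30 in BB2, -0.01 in RB886 and -0.05 in BB3. In BB19 larvae at L4, which share no library with the embryos, it was -3.27. lin-44 and crml-1 lie on chromosome I with adr-1, at 779 and 132 genes from it, and H19N07.3 lies on chromosome V. B0511.11, also on chromosome I, had 40.8 in BB19 and 149 in N2, and was low in all 4 mutants, with log2 ratios of -1.87 in BB19, -1.35 in BB2, -1.18 in RB886 and -1.21 in BB3.

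At the other end C08F11.1 was all but missing in N2 embryos. It had 68.5 in BB19 and 0.489 in N2, where the mean rests on 2 reads in all, so that the ratio of 140.1 has a 95% exact Poisson interval of 38.8 to 1157 that covers counting error of N2 alone. Its log2 ratio was between 6.87 and 7.26 in the other 3 mutants, which are set against the same N2 reads, and 0.38 at L4, where its mean was 45.3 in BB19 and 34.8 in N2. ZK1025.3 followed with 72.2 in BB19 and 13 in N2. numr-1 and numr-2, a neighbouring pair of metal-responsive nuclear proteins, had 51.2 and 44.7 in BB19, against 10.2 and 9.71 in N2. Both have the same length in the reference annotation, and their reads may not be separable. The sulfatase gene sul-3 had 62.4 in BB19 and 14.6 in N2. The rest of the 15 largest ratios included fipr-3, a fungus-induced peptide relative, grd-3 of the hedgehog-related groundhog family, and abu-1, of a family found in the pharyngeal lining. Of 25 tested fipr genes 10 were higher (40%, against 13.2% of all genes tested) and none lower. By 2-fold or more 9 were higher (a family counted after its values were seen). Several of these genes sit side by side. fipr-4, C12D8.15, fipr-7 and fipr-6 on chromosome V, clec-65, clec-66, nspb-11 and F35C5.11 on chromosome II, and grd-13, grd-3 and grd-10 on chromosome IV were unbroken runs past 2-fold.

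**Figure D3:**
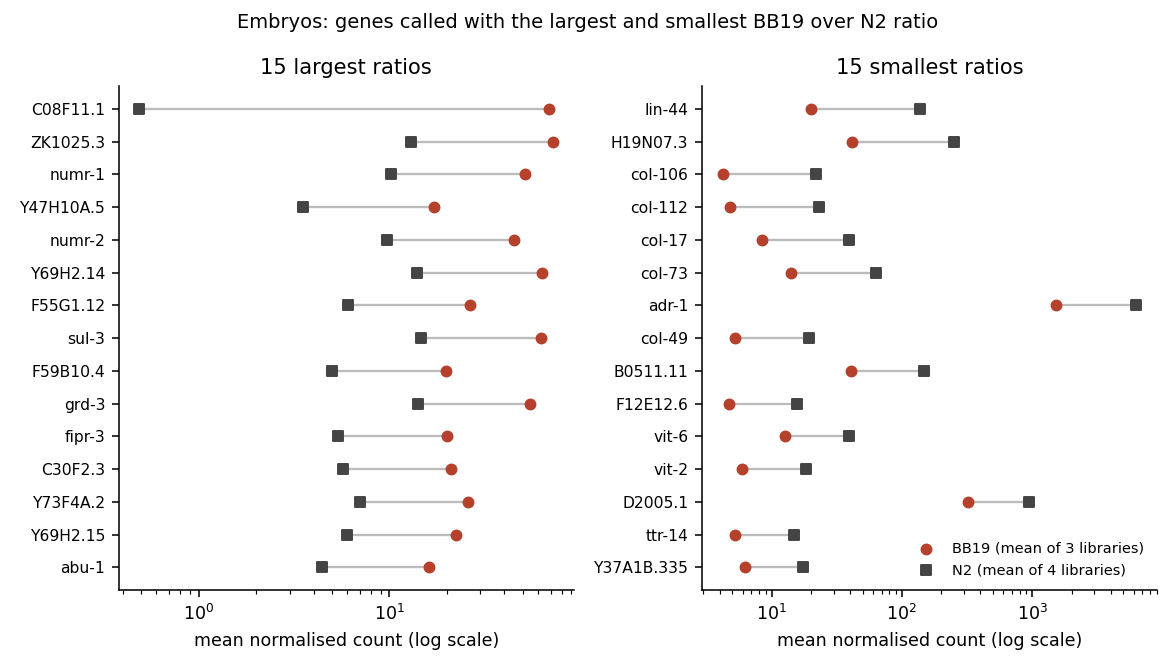
Circles give the BB19 mean and squares the N2 mean in embryos (normalised counts, log scale) for the 15 called genes with the largest ratios (left) and the smallest (right) among genes with an average mean of at least 10. C08F11.1 is set apart on the left by its N2 mean of 0.489, and the right panel mixes adr-1 and lin-44 with collagen and yolk genes.

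By absolute difference of means, the 6 largest increases were in frm-1, ttn-1, ZC247.1, anc-1, dig-1 and unc-22. frm-1, a band 4.1 family protein of the membrane skeleton, had 69800 in BB19 and 46600 in N2. ttn-1 and unc-22, the titin-like and twitchin proteins of muscle, had 71000 and 21900 in BB19, against 53500 and 13300 in N2. ZC247.1 had 57300 in BB19 and 43600 in N2. anc-1, which anchors nuclei to the cytoskeleton, had 53600 in BB19 and 40500 in N2, and dig-1, a giant matrix protein, had 42700 in BB19 and 33900 in N2. The largest decreases besides adr-1 were in ribosomal RNA and in crt-1, the calreticulin of the endoplasmic reticulum (14300 in BB19, 17400 in N2).

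Most genes in each of 3 lists of maternal and zygote genes were lower, by modest amounts (84.6%, 65.6% and 72% in the order below, against 53.5% of all genes with average means of at least 1290). Of 13 genes of egg activation and the eggshell, 11 were lower and none higher (list median log2 ratio -0.35, against -0.02 over all genes tested). rme-2, the yolk receptor of oocytes, had 789 in BB19 and 1250 in N2, and chs-1, which makes the chitin of the eggshell, had 710 in BB19 and 1090 in N2. egg-1 and egg-2, needed on the egg for fertilisation, had log2 ratios of -0.52 and -0.40. Of 32 maternal regulators of translation and cell fate 21 were lower and none higher (median -0.16). mex-1, a zinc finger protein that sets early blastomere fate, had 2070 in BB19 and 2730 in N2, and gld-1, a translational repressor of the germ line, had 1330 in BB19 and 1650 in N2. pie-1 (630 in BB19, 674 in N2), pos-1 (1210 in BB19, 1290 in N2) and skn-1 (7640 in BB19, 7580 in N2) were not called. Of 25 genes of zygote polarity and spindle positioning 18 were lower and 1 higher (median -0.11), among them par-2 at 252 in BB19 and 320 in N2, while the higher one was par-5 at 5430 in BB19 and 5150 in N2.

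Markers of adult tissue were measured in the same libraries. The 6 yolk protein genes vit-1 to vit-6, which adult intestine expresses, summed to 96.3 in BB19 and 163.5 in N2, with 5 called lower and vit-1 not called (38 in BB19, 34.6 in N2). The 35 msp genes of sperm summed to 230 in BB19 and 320 in N2, with 33 above 0 in BB19 and 34 in N2. Of 41 sperm genes listed 4 were lower (9.76%) and none higher, with a median log2 ratio of -0.50. Of all genes with average means of 7.10 to 22.3, 4.03% were lower and 15.98% higher. The oocyte genes rme-2 and puf-5 were both lower. The part of this material in the maternal, eggshell and collagen results was not tested.

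The machinery of cell division was lower nearly throughout, again by small amounts. Of 31 DNA replication genes 29 were lower and none higher (median -0.17), with mcm-5 of the replicative helicase at 3530 in BB19 and 4540 in N2 and rfc-1 of the clamp loader at 1450 in BB19 and 1760 in N2. Of 40 mitotic kinase, checkpoint and kinetochore genes 34 were lower (median -0.12), of 14 centrosome genes 12, of 21 condensin and cohesin genes 16, and of 30 genes of the nuclear pore and lamina 27, with none higher in these lists. npp-18, a nuclear pore protein, had 1240 in BB19 and 1530 in N2. Such abundant genes have a high background of lower calls, 53.5% of genes with average means of at least 1290 and 44.6% of those between 512 and 1290. With the median of abundant genes moved to 0, the medians of these lists lay between -0.09 and -0.04.

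Other housekeeping lists did not all move alike. Lower were 30 of 35 splicing genes, 25 of 32 proteasome genes, 14 of 21 aminoacyl-tRNA synthetases and 13 of 23 genes of folding in the endoplasmic reticulum, with 1, 1, none and none higher. The shares lower were 85.7% for splicing, 78.1% for the proteasome, 66.7% for the synthetases and 56.5% for folding, against 53.5% of all genes with average means of at least 1290, so that the folding list stood near that background. Of 37 respiratory chain genes 3 were higher and 8 lower (21.6%), with a median of 0. Glycolysis and related genes were split, 9 higher and 8 lower of 23, and aldo-1, an aldolase gene, had 1340 in BB19 and 1050 in N2. Most cytosolic ribosomal protein genes were higher by little, with 24 of 31 rps genes higher and 1 lower and 30 of 45 rpl genes higher and 5 lower (rpl-27 at 2490 in BB19 and 2080 in N2). Of 22 heat shock genes 14 were higher and 4 lower (median 0.14). All 6 hsp-16 genes, small heat shock proteins of which some are near-identical pairs, were among the higher (hsp-16.2 at 750 in BB19 and 650 in N2), hsp-17 had a log2 ratio of 0.89, and hsf-1, the heat shock transcription factor, was lower (2330 in BB19, 2450 in N2).

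Lists of early patterning genes held more lower than higher calls. In some of them the share lower was near that of all genes of like abundance. Notch pathway genes numbered 12 lower (54.55%, against 30.97% of genes with average means between 204.5 and 512) and none higher of 22 (median -0.14). They included apx-1, a Delta-type ligand (255 in BB19, 327 in N2), the receptors glp-1 (2280 in BB19, 2560 in N2) and lin-12, and 4 hlh targets of the REF-1 family, of which hlh-29 had 51.6 in BB19 and 76.6 in N2 and is a close copy of hlh-28, so their reads may not be separable. Of 30 Wnt pathway genes 15 were lower (50%, against 44.6% of genes with average means between 512 and 1290) and 3 higher (median -0.09). Besides lin-44 the lower ones included mom-4, a kinase that acts in endoderm induction (678 in BB19, 1020 in N2), and mom-1, which helps to secrete Wnts (149 in BB19, 188 in N2). The higher ones were the ligand egl-20 (210 in BB19, 170 in N2), the receptor lin-18 (507 in BB19, 411 in N2) and the beta-catenin bar-1 (291 in BB19, 253 in N2). Of 16 mesoderm factors 8 were lower and 1 higher, and of 11 pharynx factors 4 were lower. The shares lower were 50% for mesoderm and 36.36% for pharynx, against 30.97% of genes with average means between 204.5 and 512. Of 7 endoderm factors only end-1 was called, as lower (log2 ratio -0.33). tbx-8, tbx-37 and tbx-38, T-box factors of early lineages, had log2 ratios of -0.36, -0.34 and -0.43, and 10 of all 19 tested tbx genes were lower with none higher. Neuron factors were near the shares of all genes tested, 6 higher and 7 lower of 43. Their share lower was 16.28%, against 30.97% of genes with average means between 204.5 and 512. The heterochronic gene lin-14 of this list was higher (983 in BB19, 769 in N2). Of 12 epidermis factors 5 were lower (41.67%, against 44.6% of genes with average means between 512 and 1290) and 1 higher. Apoptosis genes were lower in 9 of 21 (42.9%, against 44.6% of all genes with average means between 512 and 1290) and dosage compensation genes in 10 of 16 (62.5%, against 53.5% of those of at least 1290), with none higher.

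Most genes of the muscle lists were higher. Of 17 thick filament and giant proteins 16 were higher and none lower (median 0.36), and lim-8 was not called (1840 in BB19, 1730 in N2). The pharyngeal myosins led, with let-75 (myo-1 in the reference annotation) at 7030 in BB19 and 3890 in N2 and myo-2 at 3370 in BB19 and 2000 in N2. Body wall myosin unc-54 had 19200 in BB19 and 15100 in N2, and unc-15, the paramyosin gene, 11000 in BB19 and 8900 in N2. Of 23 thin filament genes 18 were higher and none lower (median 0.33), with troponin T tnt-2 at 1960 in BB19 and 1160 in N2 and troponin I tni-3 at 610 in BB19 and 366 in N2. The transcription factors hlh-1 and pha-4, which specify body muscle and pharynx, were not called, at 546 and 1420 in BB19 against 563 and 1440 in N2. Of 23 genes of muscle attachment and calcium handling 15 were higher and 1 lower. The shares higher in these lists, in this order, were 94.1%, 78.3% and 65.2%. Among all genes with average means of at least 1290, 16.7% were higher. None of the genes of these muscle lists passed 2-fold. Median log2 ratios of the thick filament list were 0.15 in BB2, -0.08 in RB886 and 0.19 in BB3.

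**Figure D4:**
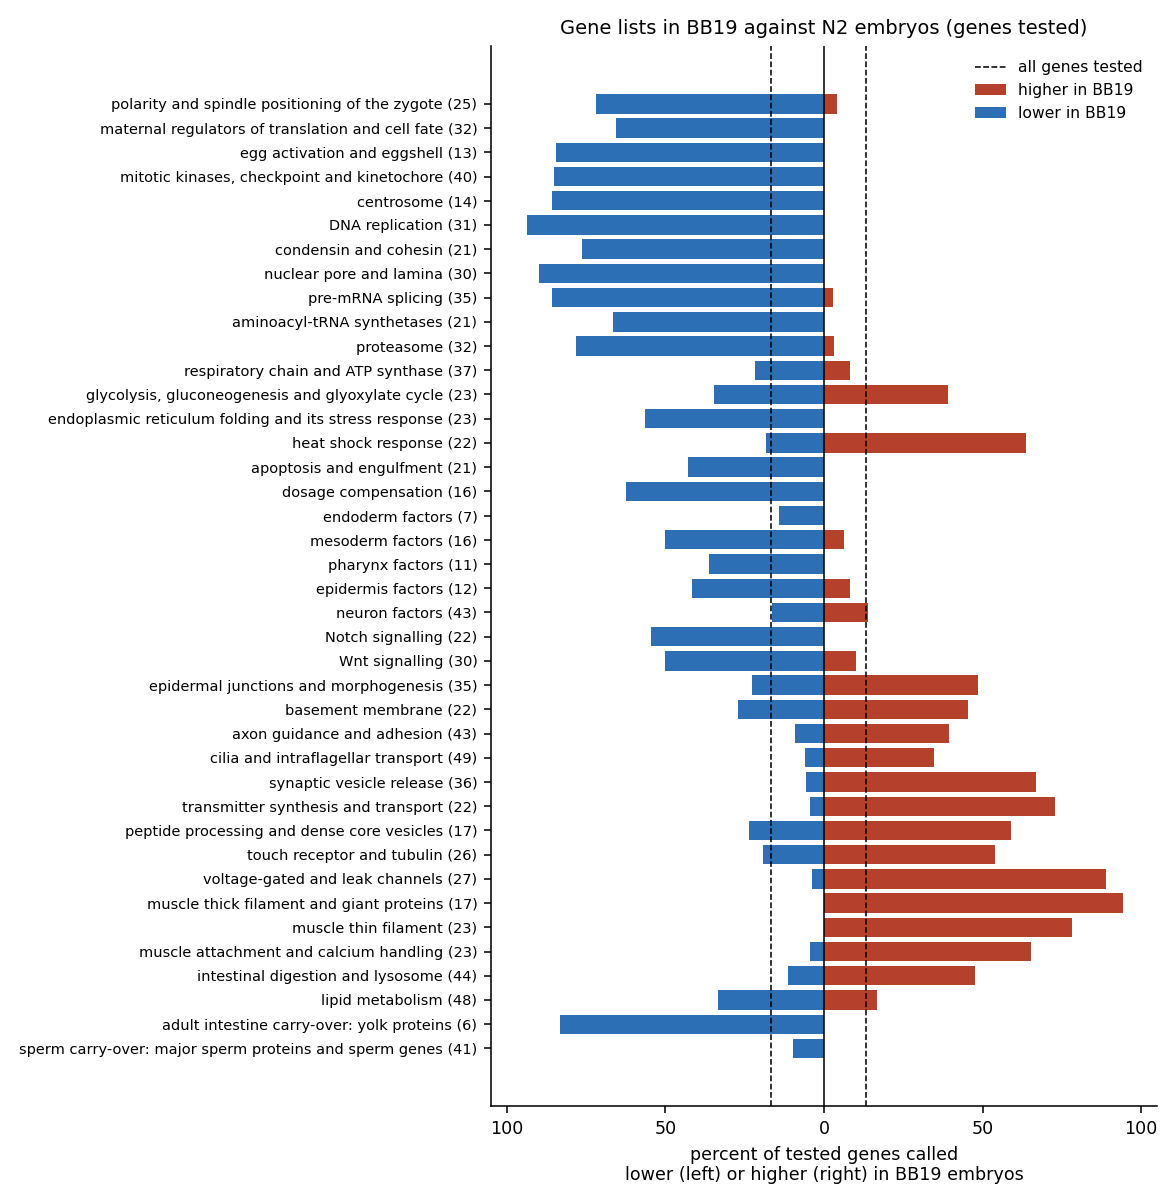
Bars give the percentage of each list's tested genes (number in brackets) called higher (red, right) or lower (blue, left) in BB19 against N2 embryos, and dashed lines give the same over all genes tested (13.2% higher, 16.8% lower). Maternal and division lists at the top and most housekeeping lists extend to the left, while glycolysis and heat shock extend to both sides. Neuron and muscle lists extend to the right, with neuron factors near both lines.

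Lists of ion channels and of genes of working neurons held more higher than lower calls. The neuron marker unc-119 was not called (324 in BB19, 346 in N2). Of 27 voltage-gated and leak channel genes 24 were higher and 1 lower (median 0.48). The share higher was 88.9%, against 20.5% of genes with average means between 204.5 and 512. unc-93 and sup-10 are partners of a muscle potassium channel, so this list is not of neurons alone. Their means were 212 and 87 in BB19 against 121 and 44.4 in N2. The potassium channel shl-1 had 216 in BB19 and 124 in N2, and the sodium leak channel nca-2 had 349 in BB19 and 214 in N2. The single lower one was kqt-1 (573 in BB19, 631 in N2). In the twk family of potassium leak channels 28 of 41 were higher and 1 lower, with twk-24 among the higher (91.3 in BB19, 39.9 in N2). The share of twk genes higher was 68.3%, against 27.1% of genes with average means of 22.3 to 73.15. Of 22 genes of transmitter synthesis and transport 16 were higher, 3 of them past 2-fold, and 1 was lower. Their share higher was 72.7%, against 27.6% of genes with average means of 73.2 to 204.5. cho-1, the choline transporter, had 127 in BB19 and 60 in N2, glt-1, a glutamate transporter, 697 in BB19 and 329 in N2, and eat-4, which loads glutamate into vesicles, 123 in BB19 and 62.7 in N2. The lower one was tdc-1, for tyramine synthesis (647 in BB19, 719 in N2). Of 36 synaptic vesicle genes 24 were higher and 2 lower. The share higher was 66.7%, against 15.65% of genes with average means between 512 and 1290. Complexin cpx-1 had 154 in BB19 and 90.3 in N2. Synaptotagmin snt-1 had 404 in BB19 and 242 in N2, while snb-1 was not called (603 in BB19, 617 in N2).

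Neuropeptides followed, with 18 of 30 flp genes (60%) and 24 of 44 nlp genes (54.55%) higher, against 1 and none lower. Of all genes with average means of 22.3 to 73.15, 27.1% were higher. flp-6 and flp-22 had 102 and 90.4 in BB19 against 46.1 and 42.4 in N2, and egl-21, which trims peptide ends, had 1060 in BB19 and 630 in N2. Of 17 genes of peptide processing and dense core vesicles, egl-21 included, 10 were higher and 4 lower. In the list of touch receptor genes and tubulins 14 of 26 were higher (53.85%) and 5 lower. mec-4 of the touch channel (263 in BB19, 161 in N2) and mec-17, the tubulin acetyltransferase (123 in BB19, 74.1 in N2), were higher. Tubulins went both ways, with tba-4, tba-5, tba-7, tbb-6, mec-7 and mec-12 higher and tba-1, tba-2, tbb-1 and tbb-2 lower. tba-7 had 125 in BB19 and 73.7 in N2, and tba-1 had 6700 in BB19 and 7110 in N2. Cilia and axon guidance genes were higher in 17 of 49 (34.7%) and 17 of 43 (39.5%), and lower in 3 and 4. Across all genes, 20.5% of those with average means between 204.5 and 512 were higher, and 16.7% of those of at least 1290. osm-3, the kinesin of sensory cilia, had 524 in BB19 and 317 in N2, and nrx-1, the neurexin, had 1070 in BB19 and 879 in N2. In BB2 the channel list had a median log2 ratio of 0.45, in RB886 0.08 and in BB3 0.27.

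Epidermal attachment and matrix genes were divided. Of 35 junction and morphogenesis genes 17 were higher and 8 lower. let-805 and mup-4, which fasten epidermis to muscle, had 9480 and 4510 in BB19 against 7240 and 3490 in N2, and the intermediate filament gene mua-6 had 1450 in BB19 and 981 in N2. The lower ones included the regulators of actin gex-2, gex-3, wve-1 and abi-1. Of 22 basement membrane genes 10 were higher and 6 lower, with hemicentin him-4 at 5250 in BB19 and 3640 in N2 and fibulin fbl-1 at 923 in BB19 and 645 in N2. Among hedgehog-related genes and their relatives, 11 of 17 grd, 14 of 23 ptr and 11 of 32 grl genes were higher, with none lower. The shares higher were 64.7%, 60.9% and 34.4%, against 13.2% of all genes tested.

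Cuticle collagens moved in both directions. Of 178 tested 71 were higher (39.9%) and 30 lower (16.85%), against 13.2% and 16.8% of all genes tested. The share lower was thus near that of all genes. By 2-fold or more 16 were higher and 20 lower, where 2.61% and 0.392% of all genes were. Y69H2.14, named col-42 in the reference annotation, was not counted among these collagens. It was also past 2-fold higher (62.9 in BB19, 13.9 in N2). The higher ones included col-12 (766 in BB19, 289 in N2), col-13 (349 in BB19, 132 in N2), col-39 (222 in BB19, 83.6 in N2) and the neighbours col-92, col-93 and col-94 (280, 188 and 316 in BB19, against 127, 85.2 and 145 in N2). The lower ones had low means in embryos, such as col-17 (8.38 in BB19, 39.6 in N2), col-73 (14.2 in BB19, 63 in N2) and sqt-1 (42 in BB19, 107 in N2). col-19, an adult cuticle collagen, had 0.313 in BB19 and 9.47 in N2. Median log2 ratios in BB2 were 0.99 for the 16 and -0.35 for the 20.

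Intestinal and lipid genes went both ways. Of 44 genes of digestion and the lysosome 21 were higher (47.7%) and 5 lower (11.4%). Among all genes with average means between 512 and 1290, 15.65% were higher and 44.6% lower. The proteases cpr-4 and cpr-5 had 184 and 156 in BB19 against 74.8 and 71.8 in N2, the acid phosphatase pho-1 had 521 in BB19 and 283 in N2, and pgp-14, a membrane transporter, had 489 in BB19 and 216 in N2. elt-2, the chief intestinal transcription factor, was not called (319 in BB19, 336 in N2), and ges-1 was lower (511 in BB19, 568 in N2). In the lipid list 8 of 48 were higher (16.7%) and 16 lower (33.3%). These shares were near those of all genes with average means between 204.5 and 512, 20.5% higher and 30.97% lower. Besides acdh-2 the lower ones included acdh-1 at 9570 in BB19 and 12000 in N2, and the higher ones the elongase gene elo-4 at 208 in BB19 and 159 in N2.

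Genes were also grouped into families by symbol, which in part recounts genes of the lists above and is no separate evidence. Of 94 families, the largest shares of lower genes were in npp (21 of 22, nuclear pore), rpn (11 of 12, proteasome cap), cdc (9 of 12) and taf (12 of 17, general transcription). The shares lower were 95.45%, 91.67%, 75% and 70.6%. Among all genes, 53.5% of those with average means of at least 1290 and 44.6% of those between 512 and 1290 were lower. With the median of abundant genes moved to 0, the medians of these families lay between -0.065 and -0.035. In fbxb, F-box proteins of which many are recent copies, 60 genes, 53.1% of those tested, were lower and none higher (median -0.29). Among all genes with average means of 73.2 to 204.5, 19.75% were lower. The fbxb genes were led by fbxb-117 at 40.5 in BB19 and 72.2 in N2. The largest shares of higher genes were in lec (10 of 11, galectins), rps (24 of 31), mec (11 of 15) and twk. The shares higher were 90.9%, 77.4%, 73.3% and 68.3%. For lec and mec, 20.5% of all genes of like average mean (204.5 to 512) were higher. For rps it was 16.7% (at least 1290) and for twk 27.1% (22.3 to 73.15). lec-6 had 434 in BB19 and 244 in N2.

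Ribosomal, transfer and small nuclear RNA genes held lower calls and no higher ones. All 19 rRNA genes, 306 of 601 tRNA genes and 66.1% of snRNA genes were lower and none higher, and 13 rRNA, 471 tRNA and 42 snRNA genes share all their values with a copy. Of 138 snoRNA genes 11 were higher (7.97%) and 14 lower (10.1%), against 13.2% and 16.8% of all genes tested. Among genes with average means of 22.3 to 73.15, 27.1% were higher and 12.8% lower. Ribosomal RNA was removed before sequencing and small RNA was fractionated away, and the part of these steps in the result was not tested. Median log2 ratios of tRNA genes were -0.36 in BB19, 0.79 in BB2, -0.09 in RB886 and 0.04 in BB3.

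The same strain at L4 gave an independent set of libraries. There 4419 of 25556 tested genes were higher (17.3%) and 3824 lower (15%), with 737 (2.88%) and 477 (1.87%) past 2-fold. Of 701 genes past 2-fold higher in embryos and tested at both stages, 46 were also past 2-fold higher at L4 (6.56% of the embryo list, 6.42% of the L4 list, against 2.93% of genes tested at both). A larger number, 63, were past 2-fold lower at L4 (8.99% of the embryo list, 13.6% of the L4 list, against 1.89%). The median L4 log2 ratio of the 701 was -0.003, and that of all genes was 0.02. Of 99 genes past 2-fold lower in embryos, 6 were past 2-fold lower at L4 (6.06%, against 1.89% of genes tested at both). They were lin-44, adr-1, H19N07.3, D2005.1, B0507.7 and oac-52. Nearly as many, 5, were past 2-fold higher at L4 (5.05%, against 2.93% of genes tested at both). By adjusted p alone, 41 of the 99 were lower at L4 (41.4%, against 15.4%) and 18 higher (18.2%, against 17.9%). The median of the 99 was -0.29.

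Genes that were higher in BB19 embryos and lower in BB19 larvae included cuticle and pharyngeal lining genes. col-12 had 4480 in BB19 and 9310 in N2 at L4 (log2 ratio -1.06, against 1.41 in embryos). abu-11 had 280 in BB19 and 132 in N2 embryos, and 151 in BB19 and 474 in N2 at L4. ptr-3 had 191 in BB19 and 88.9 in N2 embryos, and 139 in BB19 and 420 in N2 at L4, and grd-6 had log2 ratios of 1.33 in embryos and -1.31 at L4. numr-1 also turned, to 44.3 in BB19 and 107 in N2 at L4. Of the 16 collagens past 2-fold higher in embryos, 13 were lower at L4 and 1 higher. Lower calls at L4 were common among the other collagens too. Of the 20 past 2-fold lower in embryos, 12 were lower at L4 and 7 higher. Of the rest of the 178 collagens tested in embryos, 73 were lower at L4 and 31 higher. Among all genes tested at L4, 15% were lower and 17.3% higher. Past 2-fold lower at L4 were 8 of the 16, none of the 20 and 22 of the rest, against 1.87% of all genes tested. grd-3 stayed higher at L4 (log2 ratio 1.86). So did Y69H2.14 (1.88, 1930 in BB19 and 524 in N2 at L4), which is named col-42 in the reference annotation and is not among the 16 collagens. The 2 tables were normalised separately, the difference between stages was not tested, and for 2 of the 3 BB19 larval libraries an N2 library carries the same tag in its title.

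**Figure D5:**
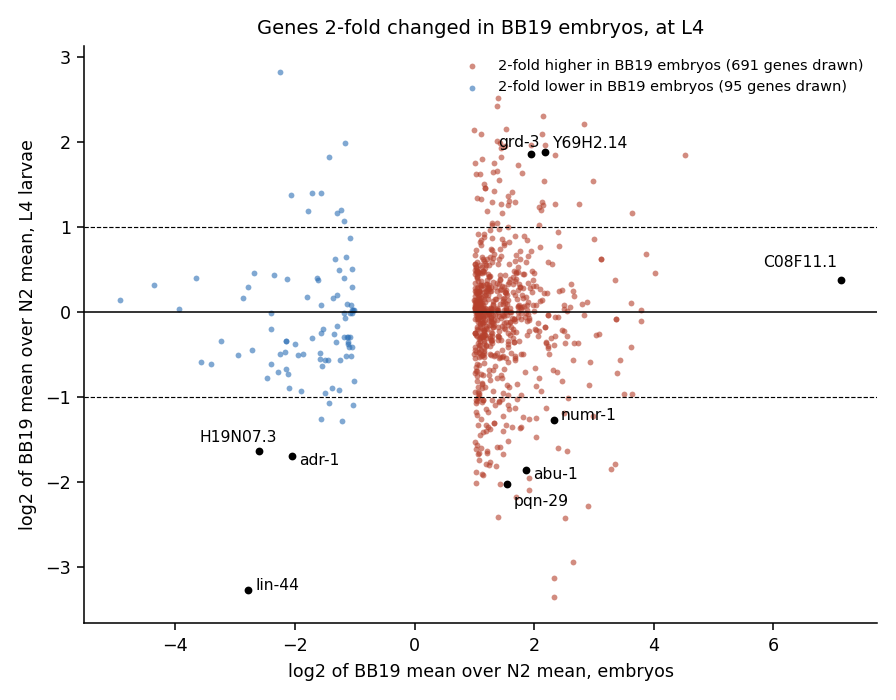
Each point is a gene past 2-fold in BB19 embryos with a finite ratio at both stages, plotted by its log2 ratio of BB19 to N2 in embryos and in L4 larvae, with dashed lines at 2-fold at L4. lin-44, H19N07.3 and adr-1 are low at both stages, while abu-1, numr-1 and pqn-29 are high in embryos and low in larvae.

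RNAs bound by ADR-1 were taken from pull-downs of FLAG-tagged ADR-1 in young adults, each set against the untagged double mutant BB21 by the authors. Of 1201 tested genes bound in HH76, 428 were higher in BB19 embryos and 208 lower, against 3134 and 4323 of the 25832 other genes. The bound genes were more abundant, so the comparison was repeated at average means of at least 100. There 36.9% of 869 bound genes were higher and 22.9% lower, against 17.8% and 40.7% of 9171 others. In HH134, 293 of 863 such bound genes were higher and 259 lower, against 1663 and 3671 of 9177 others. The median log2 ratios at this abundance were 0.04 for HH76 genes and -0.08 for the rest. Few bound genes were past 2-fold, 45 higher and 5 lower of 1201 in HH76. Median log2 ratios of all HH76 genes tested were 0.07 in BB19, 0.00 in BB2, -0.01 in RB886 and 0.04 in BB3 embryos.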

How the data were processed

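RNA came from whole embryos or larvae, as the high molecular weight fraction after ribosomal depletion, with a stranded kit, per the labels' protocols. Bowtie, DESeq and build ce10 are named in the submitters' processing notes, without version or role. No source used here gives whether counting used strand. The deposited expression signal is the authors' mean normalised count per strain and transcript. Fold change is the authors' deposited ratio of mutant to N2, and the p-value and adjusted p are theirs. The log2 fold change of pull-downs is also the authors' deposited value. No library values are given, so no count model was fitted. Depth per library is unknown beyond the factors reported, and n is 3 BB19 and 4 N2 libraries for embryos and 3 of each at L4.

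The transcript whose BB19 and N2 means had the highest sum stood for its gene. Adjusted p was recomputed within 0.01 for all 31574 transcripts that have one. Counting error was computed from the means and numbers of libraries for genes with both means of at least 100 and a log2 ratio of at least 0.1 in size, and the code was tested on simulated data. List medians use log2 of means plus 1. Fold changes of single genes are plain ratios. Gene order and kinds come from the RefSeq annotation of assembly WBcel235, matched for 29738 genes, and no coordinates are used.

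Named genes are the 15 largest and 15 smallest ratios among called genes with an average mean of at least 10, the 6 largest differences of means each way, up to 4 called members per list and 3 per family with an average mean of at least 50, up to 3 genes each way at 0 in a group, up to 5 genes with differing transcripts, neighbours of adr-1, and up to 8 shared calls at L4. The 8 abundant lower genes, collagens, the fipr, abu and cutl families, members named as not called, as the exception to a list or as examples of turning at L4 were chosen after their values were seen. Members and lists were chosen with earlier results of these data known. Versions were Python 3.11.15, pandas 2.3.3, numpy 2.4.6, scipy 1.17.1 and matplotlib 3.10.9.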

Additional observations from a re-analysis of the deposited data

How the results depend on the processing

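No paired analysis was possible because the files hold only group means. For the same reason no library could be left out, and no spread between libraries was measured. Genes past 2-fold numbered 706 higher and 106 lower. They numbered 412 and 48 at an average mean of at least 10, and 1702 and 439 at 1.5-fold. At an adjusted p under 0.01 the lower ones numbered 64. With counting error as the test (chosen after seeing the data) and the median of abundant genes at 0, genes called lower numbered 2338 in place of 4531. At 1.5-fold in both tables, 16.7% of genes higher in embryos were lower at L4, in place of 8.99%. The causes of these shifts were not tested beyond what each setting removes or adds. The other 37 of 44 alternatives left counts and shares within 1.5 times. Lists with a median above 0 numbered 15 of 41, and 20 with abundant genes centred, where the medians of apoptosis (-0.07, then 0.002), epidermis factors (-0.07, then 0.01), neuron factors (-0.03, then 0.05) and lipid metabolism (-0.03, then 0.04) changed sign and that of the respiratory chain went above 0 (0.07). Low means limit the genes past 2-fold: 294 of the 706 higher and 58 of the 106 lower had an average mean under 10.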

Other observations

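Genes listed at 0 in 1 strain were few. Of genes called higher 13 were listed at 0 in N2 embryos, among them F27C1.13 with a mean of 3.41 in BB19. Of genes called lower 14 were listed at 0 in BB19 embryos. The highest N2 mean among them, 5.12, belongs to F57G4.12 and F57G4.14, which share all their values and are a pair of copies in these data. F57G4.13, between them by name, was at 0 in BB19 and 4.31 in N2. Each of these had a log2 ratio of 0.03 in BB3 embryos, was at 0 in BB2 embryos too, and had no finite ratio in RB886 embryos. At L4 the order reversed, with F57G4.12 at 5.3 and F57G4.13 at 4.46 in BB19 and both at 0 in N2.

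Calls were unevenly spread over chromosomes. On chromosome I 432 of 3596 tested genes were higher and 936 lower, on chromosome V 836 of 6180 were higher and 642 lower, and on the X chromosome 715 of 4863 were higher and 613 lower. Genes on chromosome I were also more abundant, with a median average mean of 111.8, against 6.08 on chromosome V and 11 on the X. The part of abundance in this difference was not tested.

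Transcripts of 1 gene were called in opposite directions in 4 of 2397 genes with several transcripts of average mean at least 50. In B0464.2, named ctr-9 in the reference annotation, B0464.2d had 200 in BB19 and 154 in N2 while B0464.2c had 2490 in BB19 and 2960 in N2.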
